A study of Mus musculus with 6 samples.

Results

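The phagocyte NADPH oxidase is an enzyme complex that passes electrons from NADPH across a membrane to oxygen and so makes superoxide, the source of hydrogen peroxide and other reactive oxygen species. Its catalytic core is a membrane heterodimer, and cytosolic subunits together with a small GTPase of the Rac family move to that core when the cell is activated. In microglia, the macrophages that live in the brain, it is the main inducible source of superoxide and can be engaged by bacterial lipopolysaccharide (LPS), which Toll-like receptor 4 senses. The members described here were all probes annotated to 5 genes: Cybb, the catalytic subunit gp91phox (NOX2); Cyba, its membrane partner p22phox; Ncf1, the organizer p47phox; Ncf4, the phosphoinositide-binding subunit p40phox; and Rac2, the Rac GTPase of blood-derived cells. They were chosen by gene symbol, which gave 7 of the 45281 probes on the array and 5 of the 8598 genes tested.

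The cells were microglia from mouse brain at postnatal day 3, exposed in culture to LPS for 6 h, to phosphate-buffered saline (PBS) for 24 h or to LPS for 24 h. Ntg cells came from the C57BL/6 strain, with no allele named in the labels, and LRRK2KO cells from B6.129X1(FVB)-Lrrk2tm1.1Cai/J, which carries a disrupted allele of leucine-rich repeat kinase 2. The 6 combinations of genotype and treatment were each measured on 1 Illumina beadchip, so that no group had a replicate. There was no 6 h PBS arm, and the 24 h PBS arrays are the control for both LPS times, so the 6 h comparison also differs in time in culture.

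A probe counted as detected at a detection p under 0.01, which sets it against the negative control beads of its own array; 13126 to 15049 probes (29.0% to 33.2%) passed, and the median intensity was 94.9 to 111. Of 6 Lrrk2 probes, which give 36 values, 1 value was detected, on the Ntg PBS array, so that the Lrrk2 level checks none of the genotype labels. Of 10 microglia markers, 9 had a probe and 7 to 8 were detected on each array; P2ry12 was detected on none, and Tmem119 not on the Ntg LPS 6 h array. Their summed level, the sum of normalized linear intensities, was 25566 to 28346 on the PBS arrays and 13483 to 17189 on the LPS arrays. The list did not move one way. Of 8 tested at 6 h of LPS, 6 fell and 1 rose, where 26.2% of all genes fell and 15.8% rose. Cx3cr1 was at -2.18 ± 0.48 and Ptprc at 1.59 ± 0.21 (limma adjusted p = 0.0154 and 0.0032). At 24 h 4 fell and 1 rose, where 8.99% of all genes fell and 6.54% rose. Trem2 was at -4.70 ± 0.26 and Itgam at 1.62 ± 0.14 (limma adjusted p = 0.000916 and 0.00224). No marker of endothelium was detected on any array, and at most 1 neuron or lymphocyte marker was detected on an array. In RNA of whole cultures, fewer cells of a type and less RNA per cell cannot be told apart. The labels do not state whether different arrays drew on different cultures or animals, so the spread behind every p-value may be technical.

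Interferon regulatory factors (IRFs) are known to act at the human CYBB promoter. The promoter windows listed for mouse Cybb, which rose at 6 h of LPS, and Ncf1 are shown because both hold matches to an IRF element. The sequences are the 250 bases upstream of a start listed for each gene from RefSeq in assembly GRCm38.p6. They are written 5′ to 3′ on the strand of the gene, which is the minus strand in both cases. The Cybb window lies at chrX:9469325-9469574 and the Ncf1 window at chr5:134229626-134229875. The annotated Cybb gene spans chrX:9435252-9487766, so its window lies inside the gene and not upstream of the whole gene. The annotated Ncf1 gene spans chr5:134220053-134229628, and its window begins at that end. Capitals mark matches, on either strand, to an IRF element written as GAAA, any 2 bases, and GAAA again.

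Cybb: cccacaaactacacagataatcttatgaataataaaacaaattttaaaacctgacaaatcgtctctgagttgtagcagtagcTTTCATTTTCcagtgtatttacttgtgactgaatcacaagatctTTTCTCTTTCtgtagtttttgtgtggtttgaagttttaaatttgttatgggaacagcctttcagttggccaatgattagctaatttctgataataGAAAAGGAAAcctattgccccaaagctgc
Ncf1: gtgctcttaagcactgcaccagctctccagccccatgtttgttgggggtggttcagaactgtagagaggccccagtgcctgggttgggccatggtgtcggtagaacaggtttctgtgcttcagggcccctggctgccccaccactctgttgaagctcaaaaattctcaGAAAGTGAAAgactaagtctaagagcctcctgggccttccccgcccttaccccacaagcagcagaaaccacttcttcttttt

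The Cybb window held 3 matches, with first bases 168, 124 and 29 bases before the start, and no match overlapped another. Ncf1 held 1 match, at 82 bases before the start, and the window of Cyba held none. Among 32851 windows of this length, 2.98% held at least 1 match and 4 windows (0.0122%) held 3 or more. The PU box GAGGAA, a core sequence for the myeloid factor PU.1, and the kappaB sequence GGG, any 2 bases, TTTCC, were found on neither strand of the Cybb, Cyba and Ncf1 windows, against 23.3% and 1.41% of all windows. These matches describe the letters in the windows only.

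Cybb, the catalytic subunit, was highest after 6 h of LPS in both genotypes and lowest after PBS. On the normalized log2 scale it stood at 4.95 (Ntg) and 4.82 (LRRK2KO) after PBS, at 5.91 and 5.69 after 6 h of LPS, and at 5.46 and 5.23 after 24 h of LPS. Both LPS 6 h arrays lay above both LPS 24 h arrays, and those above both PBS arrays, with no overlap between treatments. LPS 24 h and PBS did not overlap for 57.3% of all genes. For the other pairs of treatments that share was not computed, here or for the members below. The signal was close to the background, since the dimmest probe counted as detected stood at 4.91 to 5.31 on these arrays, and Cybb was detected on 5 of 6 arrays, all but the LRRK2KO PBS array.

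As deposited, the Cybb intensity was 128 and 103 after PBS, 131 and 123 after 6 h of LPS, and 129 and 118 after 24 h of LPS, in the order Ntg and LRRK2KO. The Ntg PBS and LPS 6 h arrays therefore differed little before normalization, while the median intensity of all probes was 111 on the former and 100.37 on the latter. A second Cybb probe (ILMN_2582791) was detected only on both LPS 6 h arrays, at intensities of 128 and 122. Its intensities on the arrays where it was undetected were 114 and 101 after PBS, and 110 and 98.2 after 24 h of LPS, in the same order.

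Cyba, the membrane partner that stabilizes the catalytic subunit, was lower after 24 h of LPS than in the other treatments. Its log2 level was 13.62 and 13.67 after PBS, 13.42 and 13.50 after 6 h of LPS, and 13.16 and 13.18 after 24 h of LPS, each time Ntg and then LRRK2KO. The treatments did not overlap on this scale, and the genotypes differed by 0.02 to 0.07 within a treatment. LPS 24 h and PBS alone did not overlap for 57.3% of all genes. The deposited intensities were 14054 and 11193 after PBS, 11416 and 11840 after 6 h, and 9083 and 9101 after 24 h of LPS. In these the LRRK2KO PBS array lay below both LPS 6 h arrays.

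Ncf1, the organizer whose phosphorylation starts assembly of the complex, was lowest on the Ntg PBS array and highest on the LRRK2KO LPS 6 h array. Its log2 levels, Ntg before LRRK2KO, were 8.05 and 8.36 after PBS, 8.38 and 9.05 after 6 h of LPS, and 8.66 and 8.91 after 24 h of LPS. Both LPS arms lay above both PBS arrays, although the Ntg LPS 6 h array exceeded the LRRK2KO PBS array by little. In the deposited intensities, which were 449 and 369, then 367 and 530, then 505 and 571, the Ntg LPS 6 h array lay below the Ntg PBS array. A second Ncf1 probe (ILMN_1228585) was detected on 0 of 6 arrays.

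For Ncf4, which binds phosphatidylinositol 3-phosphate on phagosomes, the arrays separated by genotype and overlapped between treatments. Log2 levels were 11.83 and 12.29 after PBS, 12.06 and 12.42 after 6 h, and 12.01 and 12.48 after 24 h of LPS, for Ntg and LRRK2KO in turn. All 3 LRRK2KO arrays lay above all 3 Ntg arrays. Before normalization the PBS pair ran the other way, at 4395 and 4194, whereas the 6 h pair was 4494 and 5291 and the 24 h pair 4366 and 5877.

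Rac2, the GTPase that completes the active complex, was highest after 24 h of LPS in both genotypes. It measured 12.70 and 13.17 after PBS, 12.75 and 12.86 after 6 h of LPS, and 13.44 and 13.55 after 24 h of LPS on the log2 scale, Ntg first. The LPS 24 h arrays stood above the other 4 arrays, whereas the LPS 6 h and PBS arrays overlapped. The deposited intensities were 7609 and 7873, then 7377 and 7228, then 11154 and 11934; the LPS 24 h arrays were again highest, and both LPS 6 h arrays lay below both PBS arrays.

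**Figure D1:**
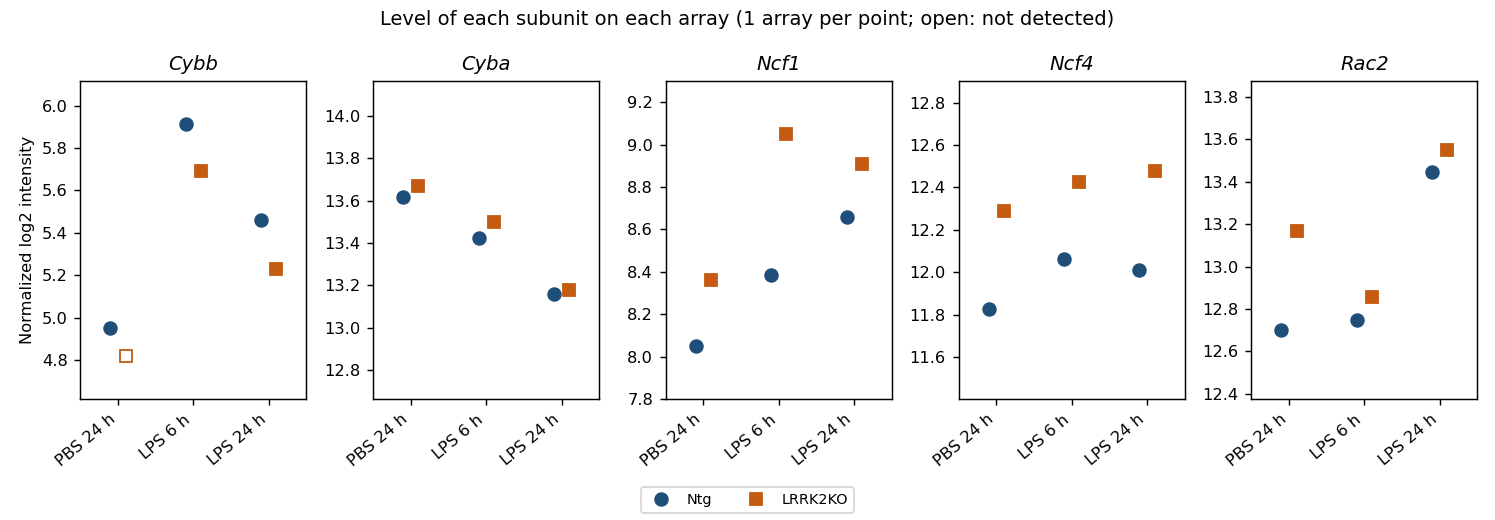
Normalized log2 intensity of each subunit (vertical axes, each spanning 1.5 log2 units) on each of the 6 arrays, by treatment, with circles for Ntg and squares for LRRK2KO; the open square is the undetected Cybb value. Cybb peaks at 6 h of LPS, Rac2 at 24 h of LPS, and the LRRK2KO points of Ncf4 lie above all Ntg points, from 12.29 upwards against 12.06 at most.

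Differences between treatments were taken from an additive limma fit of genotype and treatment over all 6 arrays, with Benjamini-Hochberg adjustment over all genes, and a gene was called at an adjusted p under 0.05. After 6 h of LPS against PBS, Cybb rose and no other member was called. The rise of Cybb in log2 units was 0.92 ± 0.14 (SE from 2 arrays per arm, 95% interval 0.57 to 1.27, limma adjusted p = 0.00507), which is 1.89-fold. Its differences were 0.96 in Ntg and 0.87 in LRRK2KO. The LRRK2KO PBS value was undetected, so the 0.87 and the 1.89-fold rest partly on a background signal. The count is 1 of 5 members, all of which passed the filter on dim probes, where 42% of all genes were called, 15.8% as higher and 26.2% as lower. Ncf1 differed by 0.51 ± 0.17 (limma adjusted p = 0.0538), by 0.34 in Ntg and 0.69 in LRRK2KO. Ncf4 differed by 0.18 ± 0.14, Cyba by -0.18 ± 0.14 and Rac2 by -0.13 ± 0.16 (limma adjusted p = 0.331, 0.334 and 0.546), and Rac2 went opposite ways in the genotypes.

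The median difference of the 5 members at 6 h was 0.18, beside -0.13 over all genes tested. The sizes for Cyba, Ncf4 and Rac2 depended on how arrays were scaled, and those for Cybb and Ncf1 moved less. With arrays scaled to a common median, the median of all genes was 0.02 and Cybb stood at 0.99. Cyba and Rac2 turned positive at 0.32 and 0.35 (limma adjusted p = 0.147 and 0.203), and Ncf1 and Ncf4 passed the test at 0.58 and 0.62. Relative to the median of all genes, Cyba stood at -0.05 under quantile normalization and 0.31 under median scaling, Ncf4 at 0.32 and 0.61, Rac2 at 0.01 and 0.33, and Cybb at 1.05 and 0.98. Without background correction the Cybb difference was 0.31, still called. Over the alternatives that kept all 6 arrays, the mean of probes aside, its limma adjusted p ran from 0.00436 to 0.0370. The second Cybb probe, undetected on both PBS arrays, was at least 1.76-fold higher after 6 h of LPS. It passed the detection filter only through the LPS 6 h arrays, so no p is given. The mean of probes takes in this second probe and is left out of the range above.

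After 24 h of LPS against PBS, 0 of 5 members were called by limma, where 15.5% of all genes were (6.54% higher and 8.99% lower), and 4 of the 5 had an unadjusted p under 0.05, where 30.6% of all genes did. Ncf1 differed by 0.58 ± 0.17, Rac2 by 0.57 ± 0.16, Cybb by 0.46 ± 0.14 and Cyba by -0.47 ± 0.14 (SE from 2 arrays per arm, limma adjusted p = 0.0732, 0.0727, 0.0842 and 0.0765). Ncf4 differed by 0.19 ± 0.14 (limma adjusted p = 0.435). Both genotypes showed the same direction for each member, but the share of all genes that did so was not computed. The treatments did not overlap for Ncf1, Rac2, Cybb and Cyba, 4 of 5 members, as they did not for 57.3% of all genes. The members' median was 0.46 and that of all genes -0.01. The call for Cyba, Ncf1 and Rac2 rested on the setting, because all 3 passed at adjusted p under 0.05 without background correction, in the authors' value table, with an offset of 50 and with a variance trend. This comparison and the 6 h comparison share the PBS arrays.

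Between the LPS times, Rac2 was higher at 24 h than at 6 h and no other member was called, 1 of 5 where 23.8% of all genes were called, 14.1% as higher and 9.68% as lower. The Rac2 difference was 0.70 ± 0.16 in log2 units (SE from 2 arrays per arm, 95% interval 0.29 to 1.10, limma adjusted p = 0.0318), or 1.62-fold, by 0.69 in Ntg and 0.70 in LRRK2KO. Cybb differed by -0.46 ± 0.14 and Cyba by -0.29 ± 0.14 (limma adjusted p = 0.0661 and 0.178), and both were lower at 24 h in each genotype. Ncf1 differed by 0.06 ± 0.17 and Ncf4 by 0.00 ± 0.14 (limma adjusted p = 0.805 and 0.997). The median of the members was 0.00 and that of all genes 0.10. Under median scaling the call passed from Rac2, at 0.34, to Cyba, at -0.68 (limma adjusted p = 0.253 and 0.0261). The Rac2 call also ended without any one of the 4 LPS arrays, where the difference was 0.60 to 0.79. The second Cybb probe, undetected on both LPS 24 h arrays, was at least 1.57-fold higher at 6 h.

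**Figure D2:**
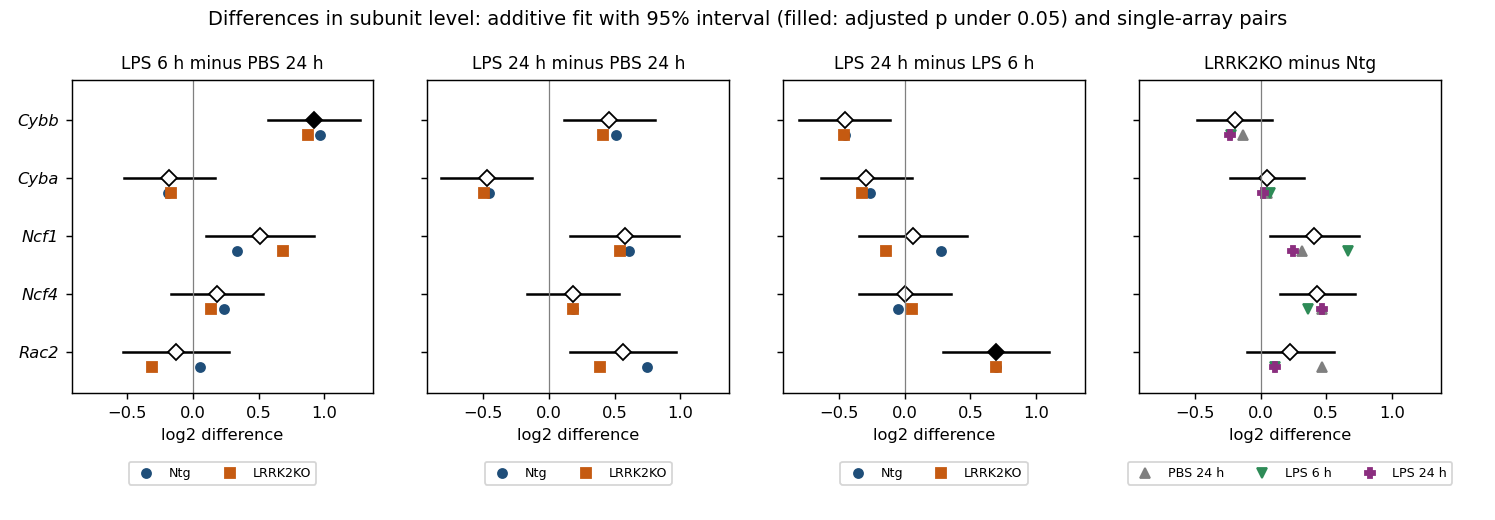
Differences of each subunit on the log2 scale, with diamonds and lines for the additive limma estimate and its 95% interval (filled where the adjusted p is under 0.05), and smaller symbols for differences between single arrays within a genotype or, in the right panel, within a treatment. Filled diamonds appear for Cybb at 0.92 (LPS 6 h minus PBS) and for Rac2 at 0.70 (LPS 24 h minus LPS 6 h). In the right panel all 3 treatments fall on 1 side of 0 for every subunit, which was not counted over all genes.

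For the genotypes, 0 of 5 members were called by limma in either direction, where 0.465% of all genes were called (0.163% higher and 0.302% lower). Ncf4 stood 0.43 ± 0.12 log2 units higher in LRRK2KO (SE from 3 arrays per genotype, 95% interval 0.15 to 0.72, limma adjusted p = 0.173), or 1.35-fold, with differences of 0.46 after PBS, 0.36 at 6 h and 0.47 at 24 h of LPS. It was the 1 member of 5 whose genotypes did not overlap, where 5.85% of all genes did not. Ncf1 was 0.41 ± 0.14 higher (95% interval 0.07 to 0.75, limma adjusted p = 0.240), with 0.66 at 6 h against 0.31 after PBS and 0.25 at 24 h. Both had an unadjusted p under 0.05, as did 16.1% of all genes, and neither passed the adjustment under any alternative.

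Rac2 differed by 0.23 ± 0.13, Cybb by -0.20 ± 0.12 and Cyba by 0.05 ± 0.11 between the genotypes (limma adjusted p = 0.464, 0.464 and 0.882). Each member kept 1 direction in 3 of 3 treatments, but the share of all genes that did so was not computed. Rac2 was 0.47 higher in LRRK2KO after PBS and 0.11 higher at both LPS times. The members' median was 0.23 and that of all genes 0.00. By RefSeq order, Ncf4 and Rac2 lie on the chromosome that also holds Lrrk2, with 10 protein-coding genes between Ncf4 and Rac2 and 199 between Rac2 and Lrrk2.

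Single arrays allowed no test of whether the genotypes responded differently. None of the 45 member differences between single arrays reached 2-fold. Of all genes, 2.74%, 3.49% and 3.93% did so between genotypes after PBS, 6 h and 24 h of LPS; 23.2% in Ntg and 18% in LRRK2KO between LPS 6 h and PBS; 10.4% and 9.85% between LPS 24 h and PBS; and 14.5% and 9.33% between the LPS times. The responses of the genotypes also differed by under 2-fold for every member, where 5.14% of all genes reached 2-fold for LPS 6 h, 2.64% for LPS 24 h and 3.36% for the step between the LPS times. With median scaling, 1 of them did, the Cybb difference between LPS 6 h and PBS in Ntg (1.11 on the log2 scale). For 3 members the direction differed between genotypes in a comparison, as it did for 19.2% of all genes from PBS to 6 h of LPS and 22.6% from 6 h to 24 h. From PBS to 6 h of LPS, Rac2 changed by 0.05 in Ntg and -0.31 in LRRK2KO. From 6 h to 24 h of LPS, Ncf1 changed by 0.27 in Ntg and -0.14 in LRRK2KO, and Ncf4 by -0.05 and 0.05.

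**Figure D3:**
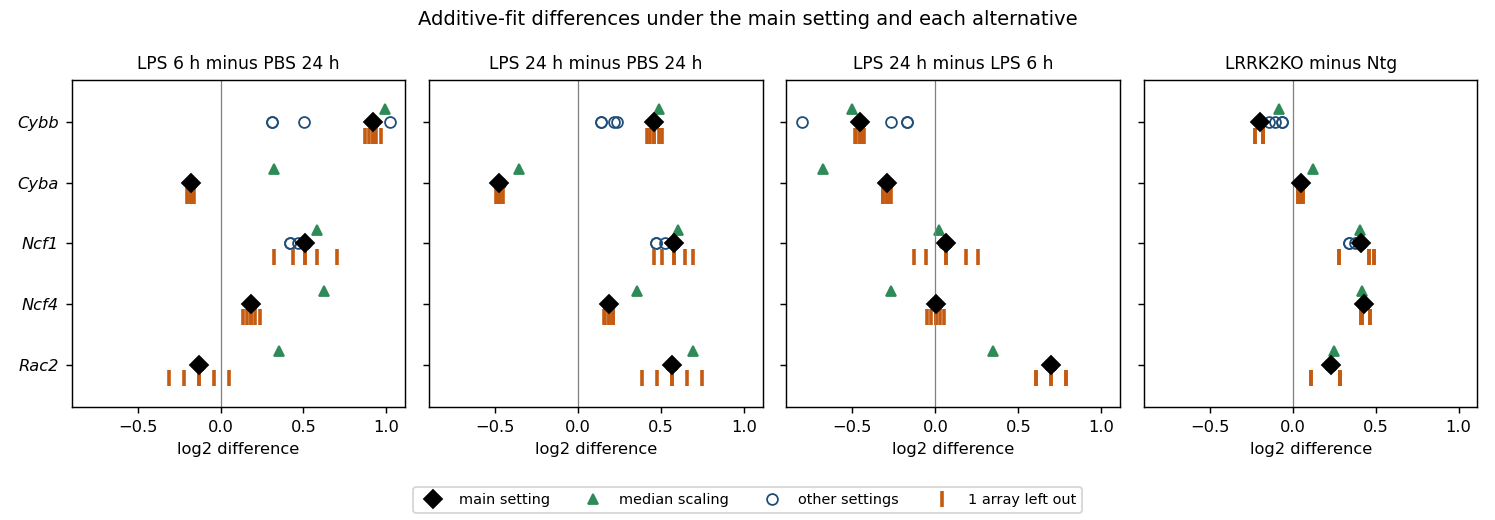
Additive-fit log2 difference of each subunit (horizontal axis) under quantile normalization (diamonds), under median scaling (triangles), under the other settings (open circles) and with 1 array left out (vertical ticks). Cybb stays right of 0 in the LPS 6 h minus PBS panel, from 0.31 to 1.02, whereas Cyba and Rac2 cross 0 under median scaling in that panel.

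Markers of other cells moved with some of these contrasts, and their part in the members' differences was not tested. Of 10 neutrophil markers, 9 had a probe and 1 to 2 were detected per array. Mpo, Elane, Ngp, Ltf, Retnlg, Cxcr2 and Mmp8 were detected on no array. The summed level was 331 to 364 after PBS, 547 to 665 after 6 h of LPS and 712 to 843 after 24 h. Of the 2 that were tested, Camp rose by 1.88 ± 0.18 and Csf3r by 1.02 ± 0.21 at 6 h of LPS, and by 1.34 ± 0.18 and 1.73 ± 0.21 at 24 h (limma adjusted p = 0.00129, 0.0119, 0.0080 and 0.00531).

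Of 8 astrocyte markers, all had a probe, 2 to 6 were detected per array and S100b was detected on none. Their summed level was 334 to 363 after PBS, 838 to 1167 after 6 h of LPS and 1786 to 2396 after 24 h. The sum followed Gja1 above all, whose mean log2 level at 24 h was 10.87. The other tested markers stood at 4.69 to 5.20 there. Gja1, encoding the gap-junction protein connexin 43, rose by 2.67 ± 0.21 at 6 h and 4.05 ± 0.21 at 24 h (limma adjusted p = 0.000741 and 0.000915). Slc1a2, undetected on both PBS and both LPS 24 h arrays, was at least 1.67-fold higher at 6 h than after PBS. It passed the detection filter only through the LPS 6 h arrays, so no p is given. The other tested markers went both ways at 6 h and were not called. Aldoc was at 0.14 ± 0.20, Aldh1l1 at 0.11 ± 0.20, Gfap at -0.20 ± 0.26 and Slc1a3 at -0.38 ± 0.31. At 24 h the tested astrocyte markers other than Gja1 were not called. Aldoc was at -0.57 ± 0.20, Aldh1l1 at -0.48 ± 0.20, Slc1a3 at -0.44 ± 0.31, Slc1a2 at 0.24 ± 0.22 and Gfap at 0.09 ± 0.26. Slc1a2 was undetected on both sides of that contrast, so its 0.24 compares background signals.

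Of 8 oligodendrocyte markers, 7 had a probe and 2 to 5 were detected per array, with summed levels of 968 to 1085 after PBS, 709 to 830 after 6 h of LPS and 812 to 1303 after 24 h; Olig2 and Pdgfra were detected on none. Mbp, encoding myelin basic protein, was at -2.90 ± 0.26 at 6 h and -1.14 ± 0.26 at 24 h against PBS, and at 1.75 ± 0.26 between the LPS times (limma adjusted p = 0.00107, 0.0391 and 0.0104). The other tested markers went both ways against PBS and were not called. At 6 h Cnp was at 0.48 ± 0.23, Mag at -0.47 ± 0.22, Mog at -0.28 ± 0.22 and Olig1 at -0.76 ± 0.45. At 24 h Mag was at 0.59 ± 0.22, Cnp at 0.47 ± 0.23, Mog at 0.15 ± 0.22 and Olig1 at -0.41 ± 0.45. Of 6 fibroblast and pericyte markers, 1 to 3 were detected per array, and Col1a2 and Rgs5 on none; summed levels were 139 to 176 after PBS, 156 to 473 after 6 h and 256 to 472 after 24 h of LPS. Dcn, a matrix proteoglycan gene, differed by 2.33 ± 0.66 at 24 h of LPS and by -1.87 ± 0.54 between genotypes (limma adjusted p = 0.0668 and 0.193). Col1a1, the other tested marker, was at -0.23 ± 0.24 and -0.27 ± 0.19 in those contrasts and was detected on Ntg arrays only. At 6 h of LPS Dcn was at 1.30 ± 0.66 and Col1a1 at -0.68 ± 0.24. Neither was called in any of these contrasts.

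Of 7 monocyte and border macrophage markers, 6 had a probe and 2 were detected on each array, and Ccr2, Lyve1, Cd163 and Plac8 were detected on none. Their summed level was 2773 to 5806 on Ntg arrays and 1106 to 2368 on LRRK2KO arrays, which did not overlap. Each of the 2 detected markers on its own did overlap between the genotypes, and 5.85% of all genes did not. Mrc1, the mannose receptor, was lower in LRRK2KO by a log2 difference of -1.72 ± 0.15 (SE from 3 arrays per genotype, limma adjusted p = 0.0389), and it was also lower after LPS, at -1.21 ± 0.18 at 6 h and -2.31 ± 0.18 at 24 h (limma adjusted p = 0.00478 and 0.00176). Pf4, the other tested marker, went the other way after LPS, at 0.53 ± 0.68 at 6 h and 2.55 ± 0.68 at 24 h. Between genotypes it was at -1.93 ± 0.55, and it was called in none of these contrasts (limma adjusted p = 0.547, 0.0579 and 0.193).

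Among the members only Cybb had a range of at least 1 log2 unit over the 6 arrays, at 1.10, so that only for Cybb were genes of similar pattern named; Ncf1, at 0.999954, fell just short. With the undetected LRRK2KO PBS value set to the lowest detected signal of its array, the range of Cybb was 0.99, also short of the limit. The 3 genes with the highest Pearson correlation over the 6 arrays, among 3513 genes with such a range, were Stat2 (r = 0.999), a signal transducer of type I interferon, and the GTPase genes Mx2 (r = 0.998) and Mx1 (r = 0.998). The 6 points share the treatments and arrays, so the values are a description.

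Stat2 spanned 2.95 log2 units, Mx2 3.86 and Mx1 4.56, wider ranges than that of Cybb. At 6 h of LPS, Stat2 rose by 2.48 ± 0.14, Mx2 by 3.22 ± 0.18 and Mx1 by 3.98 ± 0.23 (SE from 2 arrays per arm, limma adjusted p = 0.000367, 0.000362 and 0.000362). At 24 h of LPS against PBS the differences were 1.26 ± 0.14, 1.60 ± 0.18 and 2.01 ± 0.23 (limma adjusted p = 0.0047, 0.0046 and 0.00464). In LRRK2KO against Ntg they were -0.49 ± 0.12, -0.78 ± 0.15 and -0.80 ± 0.19 (limma adjusted p = 0.144, 0.102 and 0.136), none of them called.

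**Figure D4:**
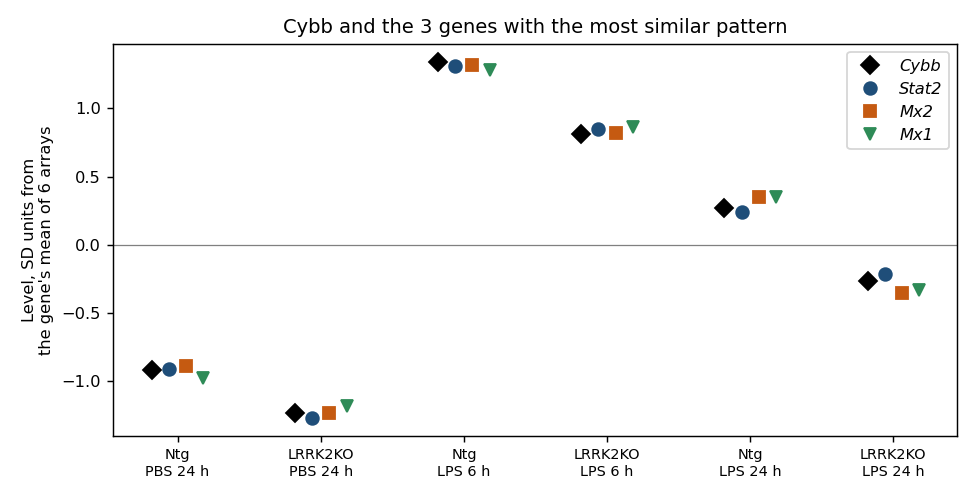
Level of Cybb, Stat2, Mx2 and Mx1 on each of the 6 arrays, as distance from the gene's own mean over the 6 arrays in units of its SD over those arrays (vertical axis). The 4 genes share 1 order of arrays, with the Ntg LPS 6 h array highest and the LRRK2KO PBS array lowest.

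Other genes of the oxidase and its surroundings were read from lists chosen by function. Of 14 other oxidase subunits and assembly factors, 12 had a probe and 3 were tested. Hvcn1, the voltage-gated proton channel that balances the charge moved by the oxidase, fell by 0.75 on the log2 scale (SE 0.15) at 24 h of LPS against PBS and by 0.80 (SE 0.15) against 6 h (limma adjusted p = 0.0277 and 0.0190). At 6 h of LPS against PBS it differed by 0.05 ± 0.15 (limma adjusted p = 0.790). Rac1, the ubiquitous relative of Rac2, and Cybc1, a chaperone for the catalytic subunit, were called in no comparison; Rac1 differed by -0.16, 0.00 and 0.16 across the treatment contrasts and Cybc1 by 0.31, 0.64 and 0.33.

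Of 10 genes that regulate Rac, 8 were tested, and 4 of these fell and 0 rose at 6 h of LPS against PBS, where 26.2% of all genes fell and 15.8% rose. By limma 0 were called at 24 h against PBS and 3 had an unadjusted p under 0.05, where 15.5% and 30.6% of all genes did. From 6 h to 24 h, 3 rose and 0 fell, where 14.1% of all genes rose and 9.68% fell. Vav2, a guanine nucleotide exchange factor, was at -1.39 ± 0.30 at 6 h (limma adjusted p = 0.0141) and at 1.67 ± 0.30 from 6 h to 24 h (limma adjusted p = 0.0152). Prex1, a Rac exchange factor, was at -1.23 ± 0.14 and 1.24 ± 0.14 in those contrasts (limma adjusted p = 0.00216 and 0.00672), and Elmo1, which works with Dock exchange factors, at -0.68 ± 0.17 and 0.50 ± 0.17 (limma adjusted p = 0.0234 and 0.0816). Arhgdib, a GDP dissociation inhibitor, rose by 0.86 ± 0.16 from 6 h to 24 h (limma adjusted p = 0.0190). Arhgap15, a GTPase-activating protein for Rac, was undetected on both LPS 6 h arrays and at least 1.18-fold lower there than after PBS; it is 1 of the 4 that fell and passed the detection filter only through the PBS arrays, so no p is given. The list's median was -0.57 at 6 h, beside -0.13 for all genes.

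Kinases that act on the oxidase moved both ways at 6 h of LPS, with 3 higher and 3 lower of 9 tested among 12 listed, where 42% of all genes were called. Syk, which couples phagocytic receptors to the oxidase, rose by 1.53 ± 0.20 (limma adjusted p = 0.00322), Pak2 by 0.91 ± 0.15 and Prkcd by 0.65 ± 0.15 (limma adjusted p = 0.00624 and 0.0175). Mapk14, encoding p38 alpha, was at -1.15 ± 0.22 and Prkcb at -0.60 ± 0.16 (limma adjusted p = 0.0101 and 0.0299). Prkca, undetected on both LPS 6 h arrays, was at least 1.11-fold lower there than after PBS. It is 1 of the 3 lower kinases and was detected on both PBS arrays and 1 LPS 24 h array. Within this contrast only the PBS side detected it, so no p is given. Of these kinases, 0 were called by limma at 24 h against PBS and 2 had an unadjusted p under 0.05, where 15.5% and 30.6% of all genes did. From 6 h to 24 h, where 23.8% of all genes were called, 2 rose (Pik3cd 0.82 ± 0.23 and Prkcb 0.78 ± 0.16) and 3 fell (Syk -0.86 ± 0.20, Prkcd -0.81 ± 0.15 and Pak2 -0.69 ± 0.15).

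Enzymes that remove superoxide and peroxide also split at 6 h, with 2 higher and 3 lower of 8 tested among 12 listed (15.8% and 26.2% of all genes). Txn1, encoding thioredoxin, rose by 1.08 ± 0.25 and Sod2, the mitochondrial superoxide dismutase, by 0.51 ± 0.14 (limma adjusted p = 0.0190 and 0.0318). The glutathione peroxidase genes Gpx1 and Gpx4 were at -1.37 ± 0.17 and -0.58 ± 0.16 and the peroxiredoxin gene Prdx2 at -0.83 ± 0.14 (limma adjusted p = 0.00253, 0.0303 and 0.00722). At 24 h against PBS 0 rose and 3 fell (6.54% and 8.99% of all genes), namely the catalase gene Cat at -1.10 ± 0.27, Gpx4 at -0.96 ± 0.16 and Gpx1 at -0.84 ± 0.17 (limma adjusted p = 0.0471, 0.0132 and 0.0266). From 6 h to 24 h, 1 rose, Prdx2 at 0.62 ± 0.14 (limma adjusted p = 0.0297), and 0 fell (14.1% and 9.68% of all genes).

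Of 10 transcription factors known at genes of phagocyte oxidase subunits, 7 were tested, and 4 rose and 0 fell at 6 h of LPS, where 15.8% of all genes rose and 26.2% fell. These were Irf1 at 1.25 ± 0.21, Irf8 at 0.73 ± 0.15, Irf2 at 0.57 ± 0.15 and Cebpb at 0.57 ± 0.15 (limma adjusted p = 0.00681, 0.0121, 0.0269 and 0.0289), 3 of them members of the IRF family. Spi1, encoding PU.1, differed by 0.01 ± 0.14. At 24 h against PBS, where 6.54% of all genes rose and 8.99% fell, only Irf8 was called in this list, at 0.96 ± 0.15 (limma adjusted p = 0.0116). From 6 h to 24 h, Irf1 was at -1.47 ± 0.21 and Irf2 at -0.72 ± 0.15 (limma adjusted p = 0.00966 and 0.0225), with 2 lower and 0 higher (9.68% and 14.1% of all genes). The list's median at 6 h was 0.57.

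Between the genotypes, 0 of the 35 tested genes of these 5 lists were called by limma, where 0.465% of all genes were. An unadjusted p under 0.05 was found for 10 of them, where 16.1% of all genes had one. The list medians ran from -0.18 for the transcription factors to 0.30 for the other subunits, beside 0.00 over all genes.

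**Figure D5:**
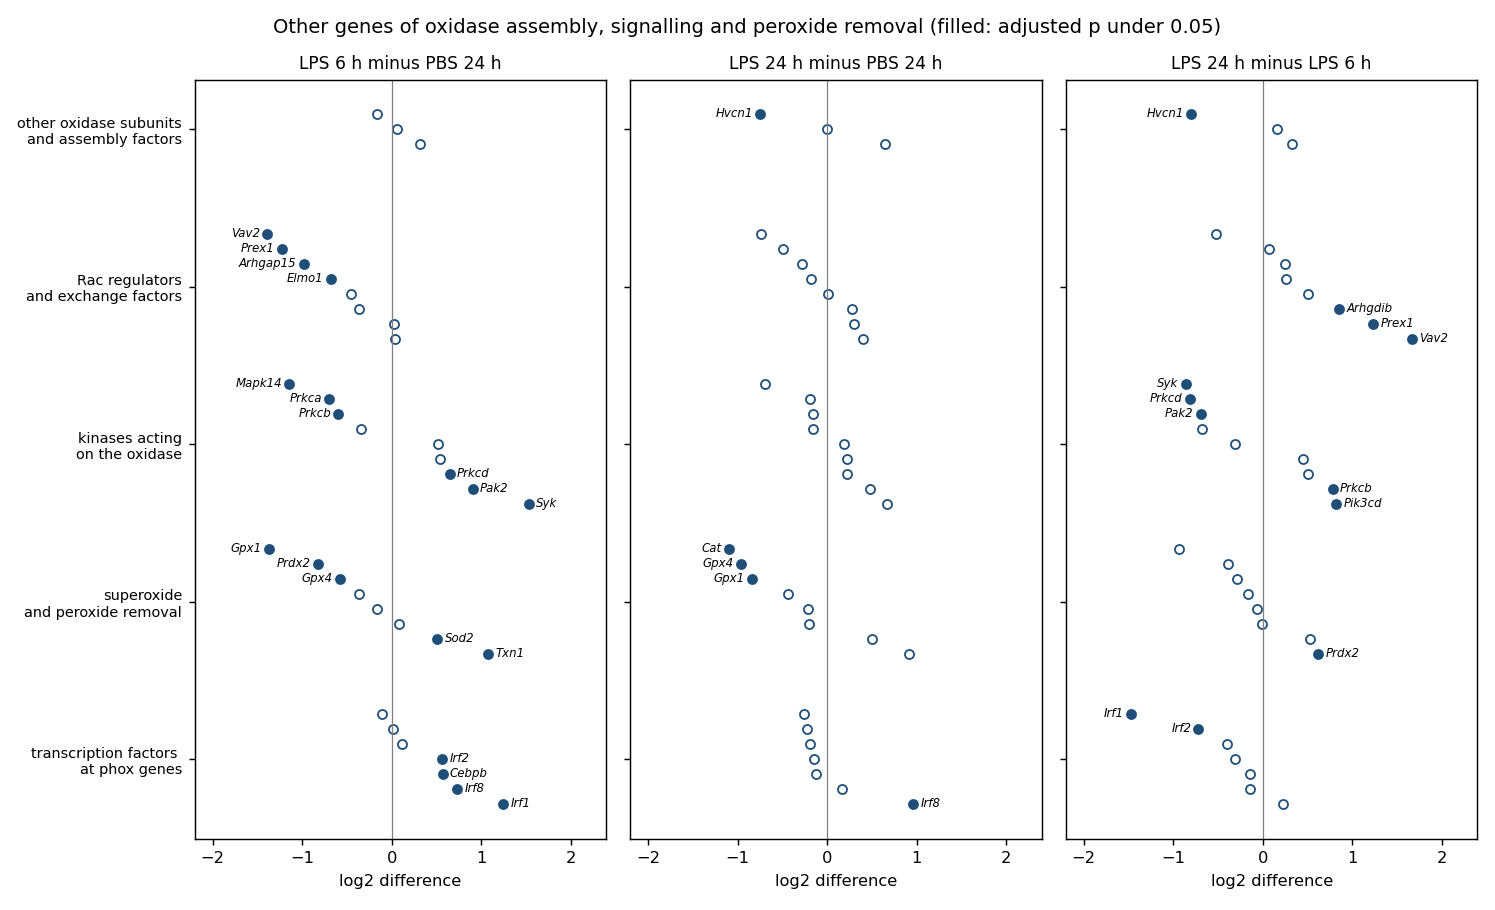
Log2 difference (horizontal axis) of every tested gene of the 5 functional lists in the 3 contrasts between treatments, from the additive limma fit, filled and named where the adjusted p is under 0.05. The Rac regulators have 4 filled points left of 0 at 6 h of LPS and 3 right of 0 from 6 h to 24 h, and the transcription factors have 4 filled points right of 0 at 6 h, led by Irf1 at 1.25.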

How the data were processed

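The authors deposited, per the file headers, a linear intensity and a detection p-value for each of 45281 probes on 6 arrays, without background subtraction (lowest intensity 78.1). The submitters' processing notes name BeadStudio, with a version not given in the sources. RNA came from a column kit and was amplified to biotinylated cRNA, per the labels' protocols. A second deposited table holds the authors' processed intensity values, which ranked probes as the unnormalized ones did on every array (Spearman rho = 1) and serve as an alternative.

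From the unnormalized values, limma 3.58.1 in R 4.3.3 corrected background with neqc (normexp from detection p-values, offset 16), quantile normalized and took log2. Of the probes, 34885 carried 1 gene symbol, 18 several and 10378 none. A gene entered with a probe detected (detection p under 0.01) on at least 2 arrays, and its brightest probe on average represented it, which left 8598 genes. The additive fit (genotype and treatment, lmFit and eBayes) leaves 2 residual degrees of freedom, with 3.88 prior degrees of freedom; p-values are two-sided with Benjamini-Hochberg adjustment over every gene tested. Its error includes both array noise and any difference in response between the genotypes, and precision is limited by the number of arrays. Differences between single arrays had no test. Bounds set the mean of the detected side against, per undetected array, the higher of the lowest detected signal and the probe's own value. The fit was tested on simulated data with 200 changed genes.

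The rule named every member and, of each list, up to 4 tested genes with the largest change per comparison, Lrrk2, and for members with a range of at least 1 log2 unit the 3 most correlated genes; single genes outside it were named where a count was 5 or fewer. Members and lists were chosen with earlier results of these data known. Promoter windows came from RefSeq (GRCm38.p6) and matched 3 of the 5 members. Alternatives changed background correction, scaling, offset, detection filter, probe choice and variance model, or left out 1 array.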

Additional observations from a re-analysis of the deposited data

Results flagged for a closer look

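In 3 cases a member went up on the arrays of one genotype and down on those of the other, and with 1 array per group none of these differences was tested. Among all genes, the genotypes had opposite signs in 19.2% from PBS to 6 h of LPS and in 22.6% from 6 h to 24 h. The change of Rac2 from PBS to 6 h of LPS differed by -0.36 on the log2 scale, LRRK2KO minus Ntg (-0.31 in LRRK2KO, 0.05 in Ntg). The change of Ncf1 from 6 h to 24 h of LPS differed by -0.42 (-0.14 in LRRK2KO, 0.27 in Ntg), and that of Ncf4 by 0.10 (0.05 in LRRK2KO, -0.05 in Ntg). Differences of at least 2-fold between the responses were seen in 5.14% of all genes for 6 h of LPS and in 3.36% for the step from 6 h to 24 h. 

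A signal also appeared in a probe that stood for no gene in the comparisons. The second Cybb probe was detected on both LPS 6 h arrays and on no other, which puts it at least 1.76-fold above PBS and at least 1.57-fold above LPS 24 h. Because it entered the probe fit only through those arrays, no p is given. The first Cybb probe differed between LPS 24 h and PBS by 0.46, and the second by -0.03, with neither called.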

How the results depend on the processing

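No paired analysis was possible because every group had the single replicate number 1. The Cybb rise at 6 h of LPS kept its call in 9 of 9 alternatives that left out no array (0.31 to 1.02). The highest value, 1.02, came from the mean of probes, which takes in the second Cybb probe. With 1 array left out the rise was 0.87 to 0.96. Cybb was not tested where detection on all 6 arrays was required. The number of members called at 6 h against PBS was 1, and became 2 without background correction, in the authors' value table, with offset 50 and with a variance trend, 3 with median scaling, and 1 to 2 with 1 array left out (2 without Ntg LPS 6 h). At 24 h against PBS it was 0, and became 3 in the same 4 settings other than median scaling, and 0 to 1 with 1 array left out (1, Ncf1, without either LPS 6 h array). From 6 h to 24 h of LPS, the Rac2 difference was 0.60 to 0.79 with 1 array left out. The number called there was 1 and stayed 1 under median scaling, with Cyba (-0.68) in place of Rac2 (0.34). The mean of probes takes in the second Cybb probe, which passed the detection filter only through the LPS 6 h arrays. With that mean the number called became 2, adding Cybb (-0.81). Between genotypes it was 0 in all 16 alternatives. Signs turned under median scaling for Cyba (0.32) and Rac2 (0.35) at 6 h against PBS and for Ncf4 (-0.27) from 6 h to 24 h. With 1 array left out, Rac2 at 6 h against PBS ranged from -0.31 to 0.051, Ncf1 from 6 h to 24 h from -0.13 to 0.26 and Ncf4 from 6 h to 24 h from -0.051 to 0.052; none of these was called, and the cause was not tested. Member differences of at least 2-fold between single arrays numbered 0, and 1 with median scaling.

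Over all genes, 1357 rose and 2256 fell at 6 h against PBS (1711 and 1769 with median scaling), and 1216 rose and 832 fell from 6 h to 24 h (1001 and 1052). Between genotypes 14 were higher and 26 lower, and 40 calls in all became 100 in the authors' value table (46 and 54), 183 with a variance trend and 0 without a detection filter. Leaving out 1 array took the calls from 6 h to 24 h from 2048 to between 161 and 1976. Cybb near background limits its size, which was 0.31 without background correction.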
